A study of Mus musculus with 6 samples.

Results

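The aminoacyl-tRNA synthetase genes were taken by symbol: protein-coding genes named with a single amino acid letter followed by ars, with or without a final digit, together with Eprs, Farsa and Farsb. This gave 37 of the 24376 genes in the tables. By the symbol rule 20 are cytosolic enzymes and 17, whose symbols end in 2, are mitochondrial. All 37 passed the filter on low counts and were tested, and none differed between the groups at an adjusted p under 0.05.

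Aminoacyl-tRNA synthetases join each amino acid to the transfer RNAs that carry its codons, and so supply every step of protein synthesis. Animal cells keep a set of enzymes for the cytosol and another for the mitochondrial ribosome, both encoded in the nucleus. Gars and Kars make the glycine and lysine enzymes of both compartments, so no mitochondrial member exists for these amino acids. Qars has no mitochondrial partner either, because mitochondrial glutamine tRNA is first charged with glutamate by Ears2 and then converted by an amidotransferase. When charging fails, uncharged tRNA activates the kinase GCN2 (gene Eif2ak4), which raises translation of the transcription factor ATF4. ATF4 in turn induces many cytosolic synthetases and amino acid genes. CD71 and Ter119 are surface proteins of red cell precursors, and the cells measured here were sorted for lacking both.

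The cells were blood progenitors from E14.5 fetal liver of C57BL/6 mice, infected with a retrovirus on isolation and grown for 3 days ex vivo. The control group received a control shRNA and the other group an shRNA against Samd14, a short hairpin RNA that lowers its target's transcripts. From both, cells negative for CD71 and Ter119 were taken for polyadenylated RNA sequencing, with 3 libraries per group. Nothing in the labels tells if the 3 libraries per group are separate animals or cultures. The p-values therefore measure the spread among these samples alone, and it may be technical. The libraries held 20584169 to 26462797 estimated counts. Samd14 had 82.0, 82.1 and 83.8 CPM (counts scaled to library size) in the control libraries and 41.9, 38.8 and 39.4 CPM in the shSamd14 libraries. This was 0.484 of the control mean (adjusted p = 4.69e-07, edgeR). Progenitor markers were present, among them Kit, given in TPM (transcript abundance scaled for gene length and library size). Kit had 215, 174 and 154 TPM in control and 146, 148 and 138 TPM in shSamd14 libraries. These groups did not overlap, as for 20.7% of tested genes in CPM, at a log2 fold change of -0.33 (edgeR adjusted p = 0.0943). Gata2 was higher without overlap, at 0.25 (edgeR adjusted p = 0.106). Of the 5 progenitor markers, 0 passed an adjusted p under 0.05. Of 5 hepatocyte markers 3 had a mean TPM under 1, while Apoa1 had 32.6 to 80.2 TPM over the 6 libraries. A mean TPM under 1 was also found for 3 of 5 endothelial and 4 of 5 B cell markers.

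A stretch of promoter sequence known to bind ATF4 with C/EBP factors was searched first, because it marks genes of the amino acid response. The motif was TGATGNAA, on both strands, in windows from 250 bases before to 50 after each annotated start (RefSeq, GRCm38.p6, the same assembly as mm10). Windows were found for 27 of the 37 members. The motif occurred in 5 of 13 cytosolic members with a window (38.5%) and in 0 of 14 mitochondrial members. It occurred in 4.51% of the 27025 genes with a window, and in 3.97% of all 32851 windows. The 5 were Aars, Gars, Iars, Tars and Yars, the enzymes for alanine, glycine, isoleucine, threonine and tyrosine. In the 25 genes of the amino acid response list described further on, 8 of 23 with a window held it, among them Asns, the asparagine synthetase gene. A match describes the letters only and shows no binding. Each line below gives 30 bases on the strand that reads TGATGNAA, with the motif in capitals, to show the core and its surroundings in 4 of the synthetases and in Asns.
Gars (chr6:55037960-55037989, minus strand): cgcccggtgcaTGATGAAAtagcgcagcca
Iars (chr13:49682126-49682155, minus strand): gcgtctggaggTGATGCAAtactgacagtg
Tars (chr15:11399655-11399684, plus strand): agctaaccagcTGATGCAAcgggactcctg
Yars (chr4:129189895-129189924, plus strand): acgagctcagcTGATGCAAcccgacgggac
Asns (chr6:7693214-7693243, minus strand): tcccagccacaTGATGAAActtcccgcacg

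Levels were compared between genes in TPM, which are scaled for gene length. Cytosolic members lay between 56.0 and 292 TPM as means over the 6 libraries, with a median of 159 TPM. Mitochondrial members lay between 5.70 and 258 TPM, with a median of 19.99 TPM. A mean of 100 TPM or more was reached by 15 cytosolic members and by 1 mitochondrial member, Lars2. Gars, the glycine enzyme, had the highest mean, with 327, 293 and 275 TPM in control and 291, 301 and 264 TPM in shSamd14 libraries. Wars, the tryptophan enzyme, had the lowest mean of the cytosolic members, with 52.6, 56.4 and 48.3 TPM in control and 59.8, 58.8 and 60.0 TPM in shSamd14 libraries. Its mitochondrial partner Wars2 had the lowest mean of all, with 6.13, 5.66 and 5.57 TPM in control and 5.41, 5.98 and 5.43 TPM in shSamd14 libraries. Among the members of each class the gene for the tryptophan enzyme thus had the lowest mean transcript level. Among cytosolic members Cars still lay below Wars in shSamd14 replicate 3, at 58.1 TPM. Tarsl2, a synthetase gene outside the symbol rule, had 47.6 to 55.0 TPM over the 6 libraries. Kars and Nars, the lysine and asparagine enzymes, followed Gars at means near 277 TPM, and the libraries of both, and of Lars2, overlapped with those of Gars. Of the 36 neighbouring pairs in the order of mean TPM, 18 had a gap larger than the SD over 6 libraries of both genes, and in 8 the libraries of the pair did not overlap. The order was not resolved among the 6 highest, Gars, Kars, Nars, Lars2, Dars and Sars, where no gap between neighbours exceeded both SDs.

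**Figure D1:**
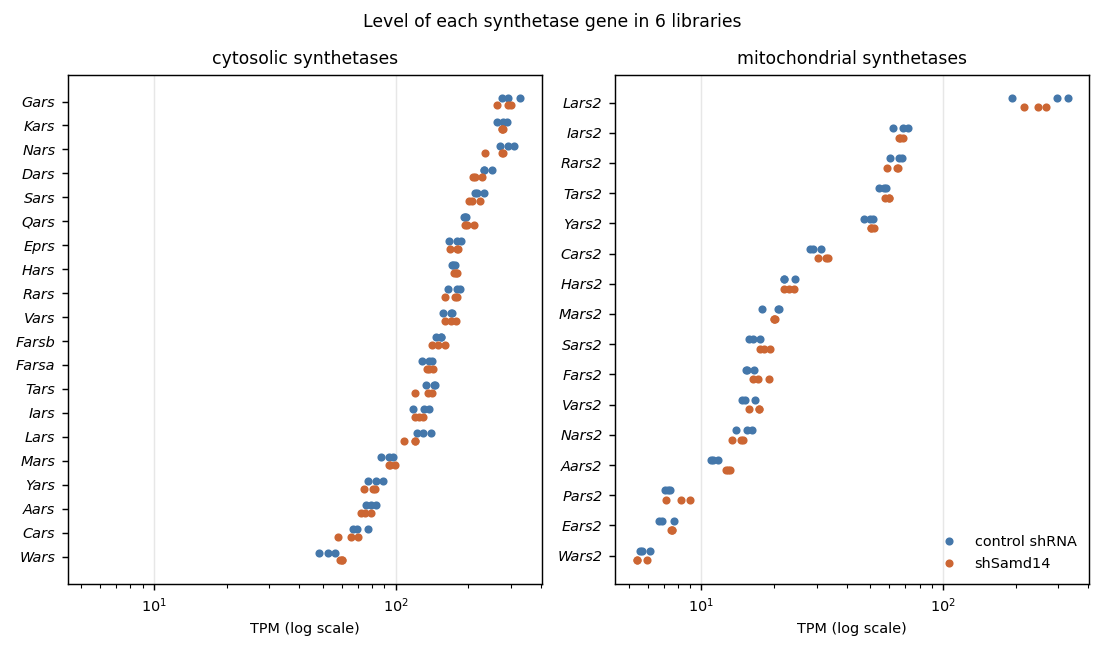
Level of 36 synthetase genes in TPM (horizontal log axis), cytosolic members in the left panel and mitochondrial members in the right, ordered by mean; each point is a library, blue for control and orange for shSamd14. Cytosolic members cluster above about 50 TPM, and Lars2 stands apart from the other mitochondrial members.

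For amino acids with an enzyme gene in each compartment, the mitochondrial gene was expressed below the cytosolic gene in all 6 libraries in 17 of 18 pairs. Eprs enters 2 of these pairs, and Fars2 is paired with both Farsa and Farsb. Over these 17 pairs the mitochondrial level, as a mean over the 6 libraries, ranged from 4.13% to 62.2% of the cytosolic level. The lowest shares belonged to Ears2 and Pars2, the glutamate and proline enzymes, both set against Eprs, which carries both activities in a single protein. Ears2 had 3.98% ± 0.294 of the Eprs level in control and 4.27% ± 0.136 in shSamd14 libraries (SD, n = 3 each). The highest shares were those of Yars2 at 59.7% ± 1.62 of Yars in control and 64.8% ± 3.22 in shSamd14 libraries, and of Iars2 at 52.3% ± 0.398 of Iars and 53.5% ± 1.93. In 6 of the 18 pairs the share was higher in all shSamd14 than in all control libraries, and in 0 it was lower. These were the pairs of Aars2, Cars2, Sars2, Tars2 and Yars2 and that of Fars2 with Farsb, and the ratio was not tested or set against other gene pairs. The exception to the lower mitochondrial level was leucine: Lars2 stood at 138%, 229% and 269% of Lars in the control libraries and at 221%, 179% and 227% in the shSamd14 libraries.

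**Figure D2:**
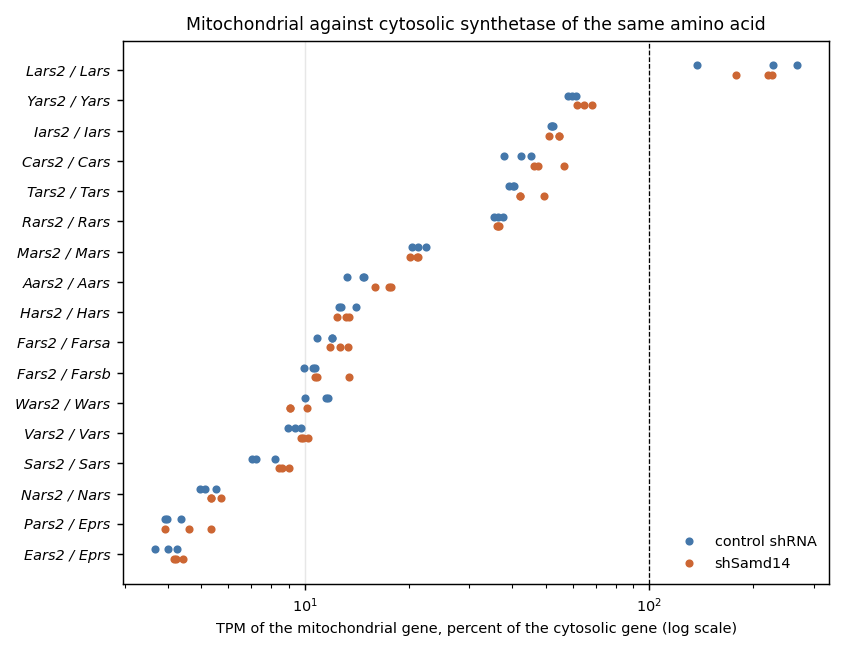
TPM of the mitochondrial synthetase as a percent of the cytosolic synthetase for the same amino acid in 17 pairs (horizontal log axis); each point is a library, blue for control and orange for shSamd14, and the dashed line marks equal levels. The leucine pair alone lies to the right of the dashed line in all libraries.

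No cytosolic synthetase passed the test between the groups, where 2.58% of the 12670 tested genes did (1.32% higher and 1.26% lower in shSamd14 libraries). The smallest adjusted p of a member was 0.234, for Dars, in edgeR's quasi-likelihood test, adjusted by Benjamini-Hochberg over all tested genes. At an unadjusted p under 0.05 there were 4 of the 37 members, Dars, Lars, Wars and Aars2, against 15% of all tested genes. In DESeq2 and limma-voom, run beside edgeR, 0 members passed, against 2.32% of 17831 and 2.15% of 12670 genes. At an unadjusted p under 0.05 there were 3 and 4 members, against 8.20% and 15.04% of all genes in these fits. In CPM the groups did not overlap for 4 members, 2 higher (Aars2 and Fars2) and 2 lower (Dars and Lars), against 20.7% of tested genes (10.5% higher and 10.2% lower).

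Dars, the aspartate enzyme (ENSMUSG00000026356; chromosome 1, 128363707 to 128417368, minus strand, mm10), had 322, 316 and 314 CPM in control and 285, 299 and 272 CPM in shSamd14 libraries. All 3 shSamd14 libraries lay below the control libraries. The log2 fold change was -0.15 (SE 0.06, 95% confidence interval -0.28 to -0.02), which did not pass. Lars, the leucine enzyme (ENSMUSG00000024493; chromosome 18, 42202298 to 42262194, minus strand), had 315, 308 and 289 CPM in control and 286, 278 and 243 CPM in shSamd14 libraries. These groups did not overlap either, and Lars differed by -0.18 on the log2 scale (SE 0.07; edgeR adjusted p = 0.237). Wars (ENSMUSG00000021266; chromosome 12, 108860030 to 108894174, minus strand) had 86.0, 95.5 and 81.7 CPM in control and 102, 96.7 and 93.7 CPM in shSamd14 libraries. Its groups overlapped in CPM through control replicate 2 but not in TPM, and the difference was 0.15 on the log2 scale (SE 0.07; edgeR adjusted p = 0.304).

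The next cytosolic members by p were Nars, Cars and Tars, the asparagine, cysteine and threonine enzymes. Nars had 472, 469 and 434 CPM in control and 443, 434 and 356 CPM in shSamd14 libraries. Cars had 110, 105 and 101 CPM in control and 108, 97.0 and 83.6 CPM in shSamd14 libraries. Tars had 221, 232 and 214 CPM in control and 229, 213 and 183 CPM in shSamd14 libraries. In each of the 3 genes the lowest value was that of shSamd14 replicate 3, while the other shSamd14 libraries lay within or near the control range. Their log2 fold changes were -0.16, -0.13 and -0.09. The other 14 cytosolic members, among them Sars, Hars, Vars, Farsa, Farsb and Qars, had log2 fold changes between -0.08 for Yars and 0.04 for Qars. The 95% confidence intervals of all 20 cytosolic members lay within a 1.5-fold change in either direction.

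The 5 synthetases whose promoter window held TGATGNAA had log2 fold changes between -0.09 and -0.04, with a median of -0.07, and their adjusted p in edgeR was 0.619 or higher. The 8 cytosolic members with a window but no match lay between -0.15 and 0.04, with a median of -0.01. Lars, Nars and Wars, at -0.18, -0.16 and 0.15, had no window and entered neither set. Without shSamd14 replicate 3 the 5 genes with a match lay between -0.02 for Yars and 0.01 for Iars. The difference between the sets was not tested. Gars had 451, 426 and 400 CPM in control and 425, 426 and 363 CPM in shSamd14 libraries, and Aars 265, 268 and 257 CPM against 273, 247 and 231 CPM. The groups overlapped in both genes, and in both the lowest library was shSamd14 replicate 3.

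No mitochondrial synthetase passed either. Aars2, the alanine enzyme (ENSMUSG00000023938; chromosome 17, 45506841 to 45520843, plus strand), had 21.3, 24.0 and 22.9 CPM in control and 26.1, 26.2 and 25.0 CPM in shSamd14 libraries. The shSamd14 libraries all lay above the control libraries, and Aars2 differed by 0.18 on the log2 scale (SE 0.08, 95% confidence interval 0.01 to 0.35; edgeR adjusted p = 0.297). Fars2, the phenylalanine enzyme, had 20.2, 19.5 and 19.7 CPM in control and 21.0, 21.2 and 23.2 CPM in shSamd14 libraries, again without overlap, and a log2 fold change of 0.14 (SE 0.08). In TPM the Fars2 groups overlapped. No other mitochondrial member had groups that did not overlap in CPM.

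Sars2, the serine enzyme, had 17.9, 20.2 and 18.1 CPM in control and 22.3, 19.6 and 19.9 CPM in shSamd14 libraries. Cars2 had 30.6, 34.9 and 31.4 CPM in control and 37.5, 32.9 and 34.6 CPM in shSamd14 libraries. Vars2, the valine enzyme, had 43.0, 41.4 and 40.3 CPM in control and 47.3, 41.8 and 44.7 CPM in shSamd14 libraries. In these 3 genes shSamd14 replicate 1 was the highest library and the groups overlapped, with log2 fold changes of 0.13, 0.12 and 0.10. Nars2 had 32.1, 34.8 and 30.7 CPM in control and 31.3, 33.2 and 26.0 CPM in shSamd14 libraries. Its groups overlapped, at -0.11 on the log2 scale. The other 10 mitochondrial members besides Lars2 had log2 fold changes between -0.06 for Rars2 and 0.08 for Ears2. With counts down to 167 per library for Ears2, the intervals of 16 of the 17 lay within a 1.5-fold change, that of Lars2 being the exception.

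**Figure D3:**
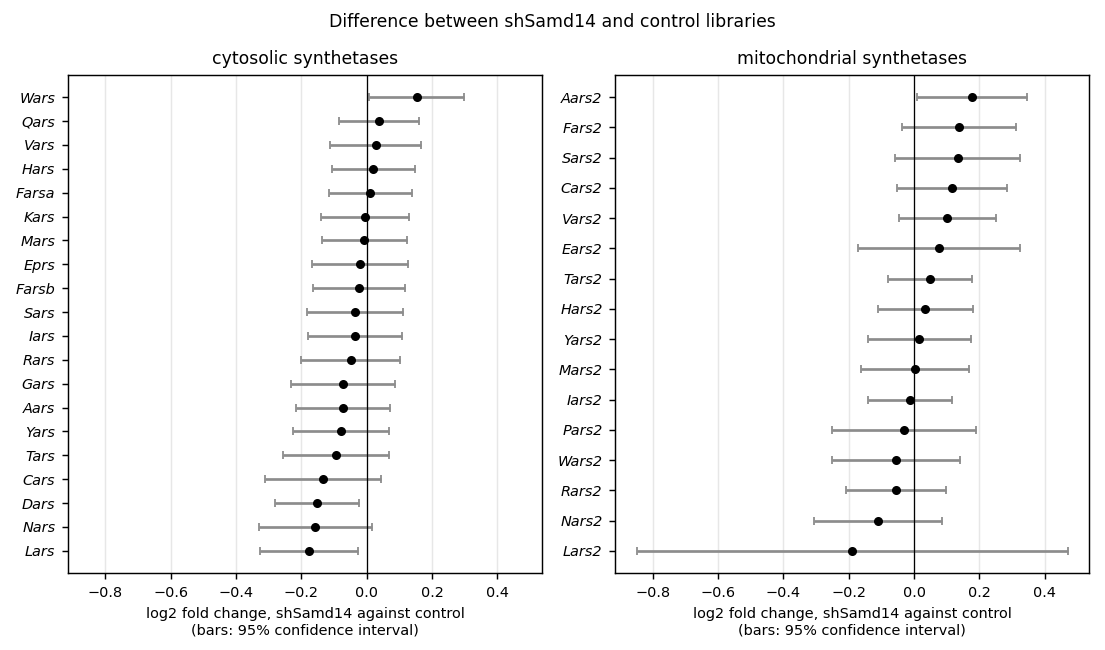
Log2 fold change of shSamd14 against control for 36 synthetase genes (horizontal axis), cytosolic left and mitochondrial right, with bars for the 95% confidence interval from the edgeR fit. The intervals of Dars, Lars, Wars and Aars2 leave out 0 before adjustment for multiple tests, and that of Lars2 is the widest.

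By class, 15 of 20 cytosolic members had a negative and 10 of 17 mitochondrial members a positive log2 fold change, where 51.6% of all tested genes were positive. The median was -0.04 in the cytosolic class and 0.02 in the mitochondrial class, beside 0.01 over all tested genes. The side of the cytosolic class rested on shSamd14 replicate 3, which was the lowest of the 6 libraries in CPM for 14 of the 20 members. Without it the cytosolic median was 0.01 and 8 of 20 members were negative, while the mitochondrial median was 0.06 with 13 of 17 positive. The mitochondrial median turned to -0.02 without control replicate 3 and to -0.03 without shSamd14 replicate 1. Summed over the class, cytosolic members held 3419, 3306 and 3116 TPM in control and 3247, 3243 and 3068 TPM in shSamd14 libraries, which overlap. The mitochondrial class held 645, 743 and 740 TPM against 716, 667 and 689 TPM, of which Lars2 alone made up a large and variable part. Without Lars2, in a sum chosen after its values were seen, the mitochondrial class amounted to 13.2%, 13.5% and 13.2% of the cytosolic sum in control and to 13.9%, 13.9% and 14.4% in shSamd14 libraries. These shares did not overlap, and no test was made of a sum over members.

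Lars2 (ENSMUSG00000035202; chromosome 9, 123366927 to 123462666, plus strand), the mitochondrial leucine enzyme, stood apart from the other members in its spread between control libraries. It had 437, 710 and 784 CPM in control and 637, 501 and 557 CPM in shSamd14 libraries. Control replicate 1 was the lowest and the other control libraries the highest, so the control group spanned all of the shSamd14 values. Its coefficient of variation in TPM was 26.0% in control libraries, where none of the other 36 members exceeded 8.95% and their median was 5.61%. In shSamd14 libraries it was 10.4%, below the 11.4% of Pars2. Of 1306 tested genes with a mean of 100 to 500 TPM, 13 (0.995%) varied more between the control libraries. The log2 fold change was -0.19 (SE 0.25, 95% confidence interval -0.85 to 0.47). Without control replicate 1 it was -0.41, with an adjusted p of 0.0744 in edgeR. Of all 36-base words in annotated Lars2 transcripts, 0.626% also occurred in an annotated transcript of another gene. Only annotated transcripts were searched, so reads from other sequence that resembles Lars2 could not be seen this way. Whether such reads entered its level or spread was not tested.

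In the cytosol several synthetases sit together in the multisynthetase complex with the scaffold proteins AIMP1, AIMP2 and AIMP3, the last encoded by Eef1e1. The 8 synthetase genes of the complex (Dars, Eprs, Iars, Kars, Lars, Mars, Qars and Rars) had a median log2 fold change of -0.03, and the 12 other cytosolic members one of -0.05. Members of the complex summed to 1467, 1433 and 1348 TPM in control and to 1383, 1405 and 1354 TPM in shSamd14 libraries. Of the scaffolds, Eef1e1 had 180, 173 and 160 TPM in control and 151, 157 and 132 TPM in shSamd14 libraries. Its groups did not overlap, and the difference was -0.23 on the log2 scale (SE 0.08; edgeR adjusted p = 0.145). With a block for the replicate number Eef1e1 passed, with an adjusted p of 0.0371 in edgeR. Aimp1 and Aimp2 had log2 fold changes of -0.16 and 0.06. Phenylalanine is charged in the cytosol by a tetramer of equal parts of FARSA and FARSB, and the ratio of Farsa to Farsb TPM was 0.897 ± 0.0200 in control and 0.923 ± 0.0788 in shSamd14 libraries (SD, n = 3 each).

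Genes around the synthetases gave few calls. Among 25 genes of the amino acid response and ATF4 targets, 2 fell and none rose, where 1.26% of all tested genes fell and 1.32% rose. The log2 fold change was below 0 for 22 of them, where 51.6% of all tested genes were above 0, and the list's median was -0.18. Atf5, a transcription factor of this response, had 18.1, 14.4 and 18.3 TPM in control and 12.8, 10.4 and 9.91 TPM in shSamd14 libraries. It fell by 0.64 on the log2 scale (SE 0.13, adjusted p = 0.0167 in edgeR). Ddit4, an inhibitor of mTOR complex 1, fell by 0.45 (adjusted p = 0.0408 in edgeR). Atf5 did not pass without control replicate 1, control replicate 3 or shSamd14 replicate 2 (adjusted p 0.0808, 0.0576 and 0.104), and Ddit4 did not pass without any of these or without shSamd14 replicate 3 (0.136, 0.0952, 0.138 and 0.133). Ddit4 also did not pass with upper-quartile size factors (0.0556) or with limma on log2(TPM + 1) and log2(TPM + 0.1) (0.0737 and 0.0773). Leaving out shSamd14 replicate 3 moved the list's median to -0.08, with 18 of 25 genes below 0 and 1 that fell. No gene of the list passed without control replicate 1, control replicate 3 or shSamd14 replicate 2. With a block for the replicate number 4 genes of the list fell, though pairing by number was not settled. Leaving out shSamd14 replicate 1 gave a median of -0.29, with 24 of 25 genes below 0 and 2 that fell. Atf4 itself had a log2 fold change of -0.03 and Asns one of -0.09, and the kinase gene Eif2ak4 one of -0.10 (adjusted p 0.870, 0.635 and 0.524 in edgeR).

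No gene of the other lists passed. Amino acid transporters had a median of -0.03 over 14 genes, and the smallest p was that of Slc43a1, a transporter of large neutral amino acids, at 0.23 on the log2 scale (SE 0.06; edgeR adjusted p = 0.0696). It passed when no filter on low counts was applied (adjusted p = 0.0459 in edgeR). Among 6 kinases and related genes of the amino acid response the smallest p was that of Eif2ak1, the heme-regulated kinase, at 0.14 (SE 0.06). The 10 mitochondrial translation factors had a median of 0.02, and Mrrf, the ribosome recycling factor, had the smallest p at 0.17 (SE 0.07). The 4 genes of mitochondrial transamidation and formylation had a median of -0.06, led by the formyltransferase gene Mtfmt at -0.17 (SE 0.08). The 6 cytosolic elongation factors had a median of 0.001, with Eef1b2 at -0.09, and the 8 other synthetases and synthetase-like genes one of -0.02, with the editing factor Aarsd1 at 0.12.

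**Figure D4:**
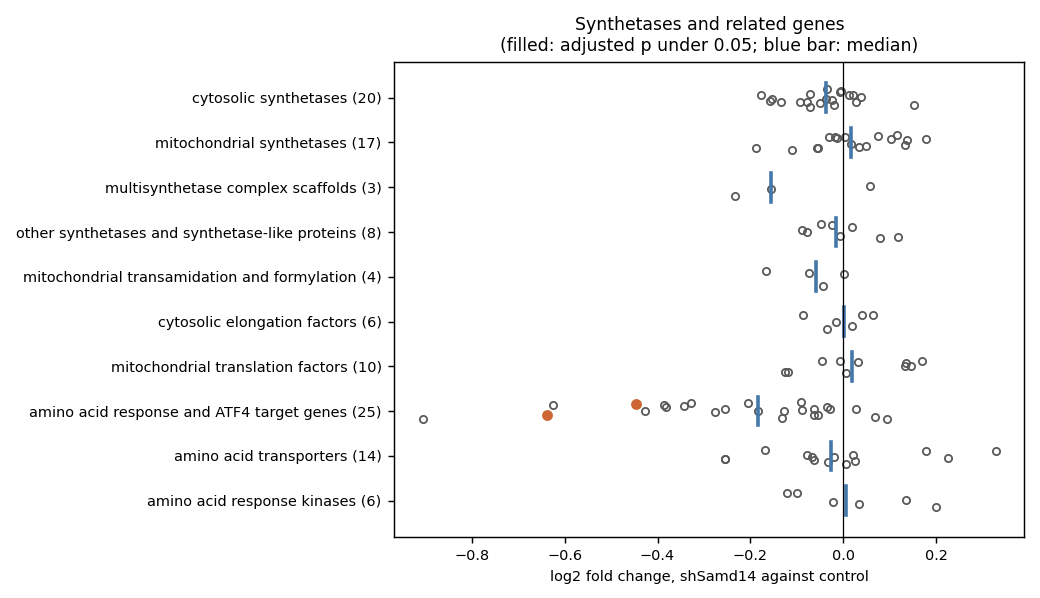
Log2 fold change of shSamd14 against control for each gene of both synthetase classes and of the related lists (numbers of genes in parentheses); each circle is a gene, filled where its adjusted p was under 0.05, and blue bars mark medians. Atf5 and Ddit4 are the filled circles, and the synthetases lie close to 0.

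Some markers of other blood cells differed between the same groups. The 8 megakaryocyte markers summed to 276 to 295 TPM in control and to 366 to 407 TPM in shSamd14 libraries, and 3 of them rose, where 1.32% of all tested genes did. The 11 erythroid markers summed to 6105 to 10985 TPM in control and to 11389 to 14608 TPM in shSamd14 libraries, and 1 rose. The 8 neutrophil markers were abundant in both groups, with sums of 6606 to 11453 TPM in control and 7909 to 11752 TPM in shSamd14 libraries, and none passed. Their part in the synthetase values was not tested, and in bulk RNA fewer cells of a type and less RNA per cell cannot be told apart.

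Some members share sequence or position with other genes, and the use of strand in counting is not given in the sources used here. Protein-coding genes overlap 11 members. Hars and Hars2 overlap each other by 198 bases on opposite strands of chromosome 18, and Iars2 overlaps Rab3gap2 by 2034 bases on the opposite strand. Aars overlaps Exosc6 by 1326 bases on the same strand. Of 36-base transcript words, 23.2% in Iars2, 14.2% in Aars and 12.3% in Iars, the last through a processed pseudogene, also occurred in another gene, so reads of these genes may have been divided and their values are less certain. In Gars, Nars, Lars, Rars, Sars and Wars none did.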

How the data were processed

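RNA of 6 libraries was measured, 3 per group. Each deposited file holds RSEM's expected counts, TPM and FPKM by gene, per the file headers. An expected count shares a read that maps to several genes between them. RSEM 1.2.15, Bowtie 1.0.1, CASAVA 1.8.2 and the mm10 build are listed in the submitters' processing notes, without settings. FPKM as deposited were read only to check TPM, and after rescaling the largest difference was 1.23% among genes with TPM of at least 1. Symbols and coordinates came from GENCODE M21 (GRCm38), which named 23580 of 24376 IDs.

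Expected counts were rounded, filtered with filterByExpr (minimum count 10, minimum total 15), scaled with TMM and compared with edgeR 4.0.16 (R 4.3.3), quasi-likelihood test, two-sided, Benjamini-Hochberg adjustment over 12670 genes, threshold 0.05. SE is the absolute log2 fold change over the square root of F, and intervals are 95%. With 3 libraries per group precision is limited. On simulated counts, with changed genes at levels in the members' range, the test found 56.4% of 1.25-fold and 95.8% of 1.5-fold changes. These were 500 genes each, pooled from 5 simulated sets with 200 changed genes per set and up to 12583 genes run. Of all calls, 3.91% were unchanged genes. Each gene was simulated with the spread typical of its level, so these shares do not hold for genes that vary more, such as Lars2. Values in every library are given for the 6 members of each class with the smallest p and for the highest and lowest by TPM, beside a few more, and of each list up to 4 genes that passed or the one with the smallest p. Alternatives were RLE and upper-quartile factors, other filters, DESeq2 1.42.0, limma 3.58.1 (voom, and log2(TPM + 1) or log2(TPM + 0.1)), a replicate block, an adjusted p under 0.1 and each library left out. The members and lists were chosen with earlier results of these data known. No library repeated another: chi-square per gene between libraries of the same group was 5.73 to 12.2, where about 1 is sampling noise. One member is counted but not reported by name here, and the sequence of 1 promoter window is not reported.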

Additional observations from a re-analysis of the deposited data

How the results depend on the processing

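The count of 0 synthetases past the threshold was the same under all 15 other fits and at an adjusted p under 0.1. The count over all genes, 327 (167 higher and 160 lower), was 136 (83 and 53) and 130 (80 and 50) with limma on log2(TPM + 1) and log2(TPM + 0.1), 682 (322 and 360) with a replicate block, and 540 (292 lower) at an adjusted p under 0.1. Without a filter on low counts 261 genes were lower. With a library left out it was 128 to 283 (63 to 133 higher and 65 to 163 lower), lowest without shSamd14 replicate 2 (128) and control replicate 1 (153); the cause was not tested. The labels do not say if libraries with the same replicate number belong together. Deviations of same-numbered libraries correlated at -0.07, 0.15 and 0.27, and not every library correlated best with its own number. Pairing by number was therefore not settled. With the block 6 members had an unadjusted p under 0.05, and the smallest adjusted p was 0.108, for Lars. Of the 37 members, 21 kept the sign of their log2 fold change in all 15 fits and 16 did not. With limma on log2(TPM + 1) and log2(TPM + 0.1), Kars (0.0085 in both), Mars (0.052 in both) and Pars2 (0.137 and 0.153) were positive. With a library left out, log2 fold changes ranged from -0.075 to 0.027 for Eprs, -0.022 to 0.054 for Farsa, -0.068 to 0.034 for Farsb, -0.012 to 0.049 for Hars, -0.086 to 0.010 for Iars, -0.058 to 0.010 for Iars2, -0.036 to 0.040 for Kars, -0.051 to 0.023 for Mars, -0.066 to 0.061 for Mars2, -0.097 to 0.013 for Rars, -0.106 to 0.0089 for Rars2, -0.122 to 0.019 for Sars, -0.021 to 0.062 for Vars, -0.028 to 0.075 for Yars2, -0.106 to 0.044 for Atf4 and -0.040 to 0.116 for Aimp2. In the main fit the intervals of all these genes included 0, so their sign is not resolved at this depth and number of libraries. The depth of 20584169 counts or more leaves members near 10 CPM, such as Ears2 and Pars2, the least precise besides Lars2.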
